A study of Mus musculus with 8 samples.

Results

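The Serpina3 cluster is a run of closely related serpin genes on mouse chromosome 12. Its members here were the 7 genes Serpina3f, Serpina3g, Serpina3h, Serpina3i, Serpina3k, Serpina3m and Serpina3n, out of 36608 gene names on the array, and they were taken as the 9 non-control probes that carry those names. The 7 genes were chosen by their measured difference between LPS and saline in these same samples, among them the large difference of Serpina3g, so their LPS and saline values are given as a description with no test. The study isolated CD11b+ cells, the brain fraction that carries the integrin of microglia and other myeloid cells, with magnetic beads, and its mice were C57BL/6N males aged 7 days. The treated mice had received lipopolysaccharide (LPS, an outer membrane component of Gram-negative bacteria) and the controls saline, and both were taken at 24 h. Each group had 4 tubes, each tube pooled 2 brains, and each tube's RNA was hybridised to 1 array of a single-colour Agilent slide. The dose and route of LPS are not given in the sources used here. A tube is a pool of sorted cells. A lower value in it cannot be told apart as fewer cells of a type or less RNA per cell. Likewise, a higher value cannot be told apart as more cells of a type or more RNA per cell.

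Serpins are protease inhibitors that offer the protease a bait loop, and once the loop is cut the serpin changes shape and traps the enzyme. Humans have a lone SERPINA3 gene, which encodes alpha-1-antichymotrypsin, an acute phase protein of the liver, whereas the mouse locus has expanded into a cluster of paralogs. In the mouse brain Serpina3n is best known as a marker of reactive astrocytes, while Serpina3g, also called Spi2A, is an intracellular inhibitor of cathepsins studied in lymphocytes and macrophages.

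Because the paralogs are alike, the probes were compared first. The probes are 60 bases long, are given here 5′ to 3′ as in the scanner files, and have plus-strand coordinates on build mm9 from the file headers. The following 4 are the probes of the members that differed between the groups, together with the second probe that the array names for Serpina3f.
Serpina3g, chr12:105480045-105480104: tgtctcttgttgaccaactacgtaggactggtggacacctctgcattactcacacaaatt
Serpina3f first probe, chr12:105458989-105459048: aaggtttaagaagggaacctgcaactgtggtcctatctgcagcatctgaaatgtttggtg
Serpina3n, chr12:105651918-105651977: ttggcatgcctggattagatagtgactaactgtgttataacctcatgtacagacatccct
Serpina3f second probe, chr12:105492556-105492615: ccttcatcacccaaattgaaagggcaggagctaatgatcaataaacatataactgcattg
The second Serpina3f probe starts 33.6 kb from the first and only 823 bases from the start of the Serpina3h probe, and the array's annotation lists the Serpina3h transcript for it too. It also matched the probe of the neighbouring paralog Serpina3b at 47 bases, with a longest shared run of 14 bases. Its values are therefore given apart from those of the first probe.

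Among the 36 pairs of member probes, only Serpina3h and the second Serpina3i probe were near copies. They matched at 53 bases, with 3 mismatches and 2 gap bases, and share the run of 22 bases in capitals.
Serpina3h, chr12:105491733-105491792: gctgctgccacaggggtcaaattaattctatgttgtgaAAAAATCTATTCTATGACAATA
Serpina3i second probe, chr12:105506705-105506764: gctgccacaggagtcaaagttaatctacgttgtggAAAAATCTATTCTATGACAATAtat
No other pair of member probes shared a run of more than 8 bases. Against all other probes of the array, the probes of Serpina3g and Serpina3n and the first probe of Serpina3f shared at most 14, 14 and 12 bases in a row, each with a gene outside the serpins. These searches cover the probe letters only, and binding of a paralog's RNA to a probe was not tested.

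Signals are the scanner's processed intensities in arbitrary units, and a probe counts as well above background where the scanner's own test marks it so. The lowest such signal was 4.41 to 4.51 on the 8 arrays. Serpina3g, the intracellular cathepsin inhibitor, had signals of 230.0, 228, 173 and 359.6 on LPS replicates 1 to 4, against 12.7, 19.0, 19.4 and 16.3 on saline replicates 1 to 4. It was well above background on all 8 arrays, and every LPS array lay far above every saline array. The mean signal was 248 ± 79.0 in LPS samples and 16.9 ± 3.08 in saline samples (SD, n = 4 each). On log2 values relative to each array's 75th percentile, the difference LPS minus saline was 3.99 ± 0.24 (standard error), a 15.8-fold higher level. It was 2.19 with normexp background correction, which adds an offset of 50 to every signal. The slide had 2 rows, each with 2 LPS and 2 saline arrays, and within them the difference was 4.40 in row 1 and 3.57 in row 2. Serpina3g had the 23rd largest increase among the 35494 probes kept for testing, which were those well above background on at least 4 of the 8 arrays.

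The first Serpina3f probe had signals of 22.3, 20.1, 14.8 and 41.1 on LPS replicates 1 to 4, against 1.91, 2.84, 1.52 and 2.30 on saline replicates 1 to 4. It was well above background on all 4 LPS arrays and on 0 of the 4 saline arrays, so only a bound on the difference can be given. The mean signal was 24.6 ± 11.4 in LPS samples and 2.14 ± 0.56 in saline samples (SD, n = 4 each), and the level was at least 5.67-fold higher after LPS. Such a bound sets the mean LPS level against, on each saline array, the higher of the probe's own value and the lowest signal well above background. With the undetected saline values taken as they stand, the fitted log2 difference was 4.29 in slide row 1 and 2.90 in slide row 2, and neither is a measured fold. The second Serpina3f probe read 2.74, 2.26, 3.05 and 9.15 on LPS replicates 1 to 4, against 0.90, 0.92, 3.06 and 1.30 on saline replicates 1 to 4. It was well above background on LPS replicate 4 alone, its groups overlapped and it was not kept for testing, so the 2 probes named for Serpina3f do not give the same picture.

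Serpina3n, a secreted inhibitor of granzyme B, cathepsin G and neutrophil elastase, had signals of 14.8, 15.6, 22.3 and 34.7 on LPS replicates 1 to 4, against 3.85, 3.06, 3.87 and 1.88 on saline replicates 1 to 4. No saline array reached the level of any LPS array, and none was well above background. The mean was 21.8 ± 9.21 in LPS samples and 3.16 ± 0.94 in saline samples (SD, n = 4 each), which makes the level at least 5.09-fold higher after LPS. With the undetected saline values taken as they stand, the fitted log2 difference was 2.80 in slide row 1 and 2.99 in slide row 2. The markers of astrocytes, the brain cells best known for this gene, were lower after LPS, with 0 of 10 measured genes higher and 9 lower. Their summed level, in multiples of each array's 75th percentile signal, was 16.1 to 21.8 on the LPS arrays and 28.1 to 34.6 on the saline arrays. The part of astrocyte RNA in the Serpina3n signal was not tested.

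Serpina3h, which RefSeq lists as a transcribed pseudogene, had signals of 11.6, 7.82, 5.97 and 11.1 on LPS replicates 1 to 4, against 6.13, 10.0, 8.56 and 6.73 on saline replicates 1 to 4. The probe was well above background on all 8 arrays, and the groups overlapped throughout their range. The mean was 9.13 ± 2.69 in LPS samples and 7.85 ± 1.76 in saline samples (SD, n = 4 each), with a log2 difference of 0.33 ± 0.27. Its near copy, the second Serpina3i probe, was not well above background on any array and carried the scanner's surrogate value for undetected spots on all 8. The signal read by the Serpina3h probe was therefore not seen at the probe that matches it at 53 bases. The Serpina3h probe lies 11.7 kb from the Serpina3g probe, the nearest member probe with a large difference, and did not show that difference.

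The remaining members were below detection. The first Serpina3i probe read 1.56 to 4.15 on the LPS arrays and 1.33 to 2.18 on the saline arrays. Serpina3k, known in the liver as contrapsin, an inhibitor of trypsin, read 1.02 to 2.68 on the LPS arrays and 1.04 to 2.14 on the saline arrays. Serpina3m read 1.01 to 4.76 on the LPS arrays and 3.38 to 3.88 on the saline arrays. None of these 3 probes was well above background on any array, and the groups overlapped in each of them, so no difference was detectable at this signal.

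**Figure D1:**
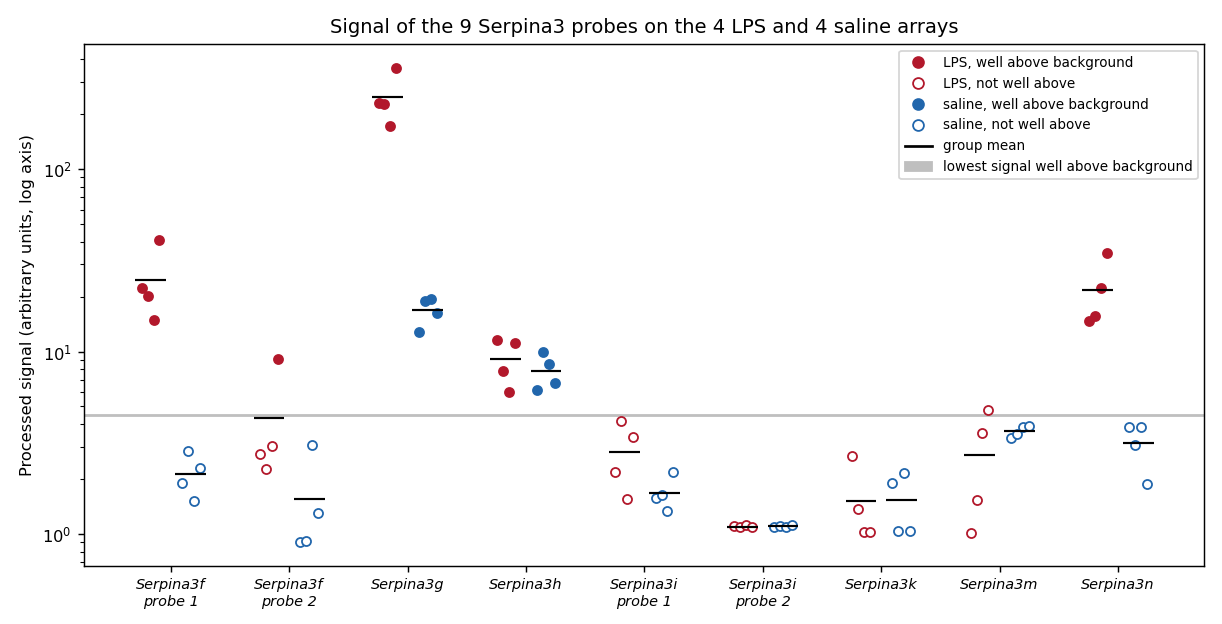
Processed signal (arbitrary units, log axis) of each of the 9 member probes, with LPS arrays in red to the left of saline arrays in blue, filled where the spot was well above background, and with the group mean as a bar. Serpina3g and the first Serpina3f probe and Serpina3n have LPS arrays above all saline arrays, Serpina3h overlaps, and the other 5 probes lie near or under the grey band of the lowest signals well above background (4.41 to 4.51).

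Counted over probes, 4 of the 9 member probes were kept for testing, representing 4 of the 7 genes. The groups did not overlap for the first Serpina3f probe, Serpina3g and Serpina3n, and they overlapped for Serpina3h. Serpina3f and Serpina3n were kept only through their LPS arrays. Of all 35494 probes tested with limma at an adjusted p of 0.05, 47.5% were called, 25.7% were called higher and 43.3% had groups that did not overlap. The median log2 difference of all probes was -0.0002. The members were chosen on this contrast, so nothing is read from their share, and the 4 kept probes do not stand for all 9.

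The members' spread among the LPS tubes had a shared feature. LPS replicate 4 had the highest level of Serpina3g, Serpina3n and the first Serpina3f probe. The second probe named for Serpina3f was also highest there, but it was well above background on that array alone. Among the 9115 probes called higher in the whole table, LPS replicate 4 was highest in 26.1% and LPS replicate 1 in 61.1%, while LPS replicate 3 was lowest in 89.7%. Serpina3g and the first Serpina3f probe were also lowest on LPS replicate 3, whereas Serpina3n was lowest on LPS replicate 1, which was lowest in 4.28% of those probes. Without LPS replicate 4 the log2 difference was 3.78 for Serpina3g, and the fitted difference, with undetected saline values as they stand, was 3.31 for Serpina3f and 2.64 for Serpina3n. On LPS replicates 1 to 4 the summed level of 9 neutrophil markers was 169, 243, 293 and 298. That of 7 lymphocyte markers was 3.82, 3.97, 3.84 and 4.88. Most of the neutrophil sum came from S100a9 and S100a8, with mean LPS signals of 29302 and 10272, against 448 for Camp, the next brightest. Those 2 genes were called higher, and the 7 other neutrophil markers were not called, so the sum does not speak for the list. Neutrophil markers summed to 71.5 to 168 and lymphocyte markers to 1.97 to 3.14 on the saline arrays. The part of these cells in the members' signal was not tested.

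Along the chromosome, the large differences stood beside probes with small or undetectable ones. Serpina3b, a paralog outside the 7 genes and 102 kb from the Serpina3g probe, had signals of 33.8 to 42.9 on the LPS arrays, against 28.7 to 38.2 on the saline arrays. It was well above background on all 8 arrays, and its difference of 0.29 ± 0.18 did not pass the limma test (adjusted p = 0.207). A probe for a transcript with no gene name, between Serpina3f and Serpina3g, had a difference of 0.39 ± 0.16 (limma adjusted p = 0.0818). The probes of Serpina3a, Serpina3c and Serpina3j were not well above background on any array. Serpina3h, Serpina3i, Serpina3j, Serpina3k and Serpina3m have probes between Serpina3g and Serpina3n. Of these genes only Serpina3h was detected, and it did not show the large difference. The second Serpina3f probe, which also lists the Serpina3h transcript, lies there too, 12.5 kb from the Serpina3g probe. It was well above background on 1 LPS array and 0 saline arrays, so the probes listing that transcript do not give the same picture. The probes of Serpina3i, Serpina3j, Serpina3k and Serpina3m were not well above background on any array. They cannot show whether the raised signal is unbroken there.

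**Figure D2:**
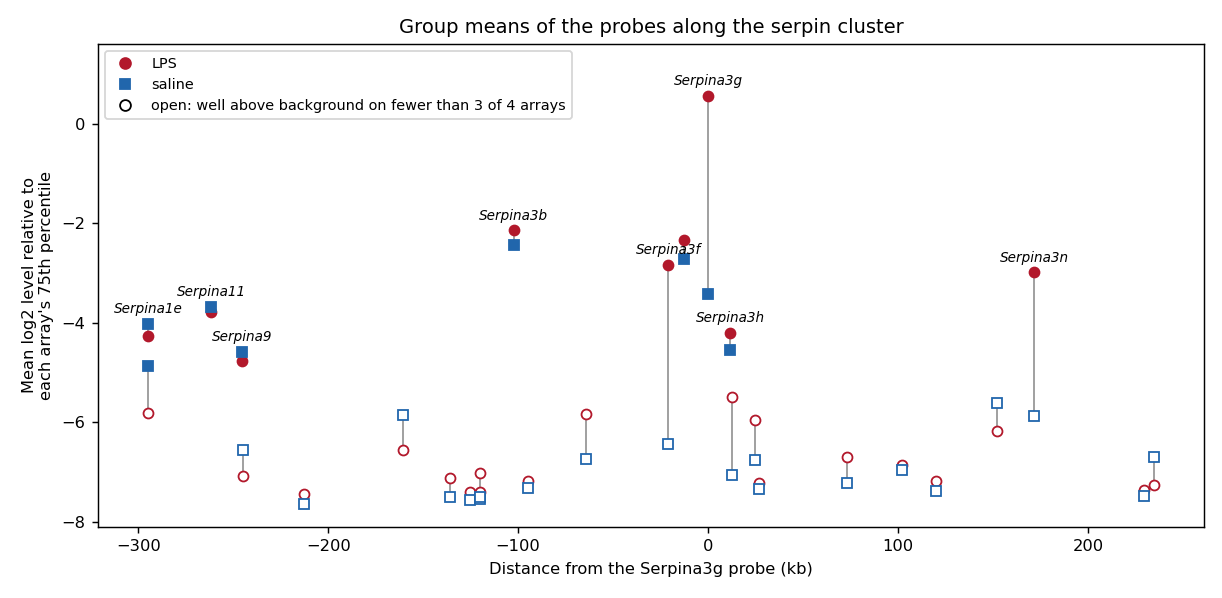
Mean log2 level relative to each array's 75th percentile of serpin probes and nearby transcripts, with LPS as red circles and saline as blue squares, against the distance in kb from the Serpina3g probe. Symbols are open where a probe was well above background on fewer than 3 of 4 arrays, and heights may be compared between groups for a probe but not between probes. Long vertical lines mark Serpina3f, Serpina3g and Serpina3n (at 172 kb), with Serpina3b and Serpina3h showing short ones.

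The promoters of the members were then set side by side, whether or not the gene was detected. RefSeq promoters of build GRCm38.p6, 250 bases before to 50 bases after the start, were at hand for 4 of the 7 members, Serpina3f, Serpina3g, Serpina3i and Serpina3n, and the motifs were picked with the sequences in view. The windows below are 60 bases long, from the plus strand, and aligned on the same stretch, and capitals mark a match to the STAT motif TTCNNNGAA.
Serpina3f, chr12:104214393-104214452: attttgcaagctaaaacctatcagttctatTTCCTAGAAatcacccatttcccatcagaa
Serpina3g, chr12:104236084-104236143: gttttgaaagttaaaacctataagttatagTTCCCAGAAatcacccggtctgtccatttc
Serpina3i, chr12:104262990-104263049: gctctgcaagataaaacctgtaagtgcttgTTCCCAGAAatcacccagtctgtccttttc
Serpina3n, chr12:104406555-104406614: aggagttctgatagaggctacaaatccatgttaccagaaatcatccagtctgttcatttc
The match starts 121 bases before the transcript start in Serpina3f, 33 bases before it in Serpina3g and 102 bases before it in Serpina3i. The table also lists a second start for Serpina3f, from which the same match lies at position -210. The Serpina3n promoter had no match in its 300 bases, and 8.30% of the 32851 promoters in the table hold this motif, searched on both strands. Serpina3g and Serpina3i each had a match to the NF-kB motif, which 8.46% of all promoters hold, and Serpina3f had matches to the C/EBP motif TTNNGCAA, which 10.8% hold. The interferon-stimulated motif GAAANNGAAA, held by 3.44%, was in none of the 4, and Serpina3n held none of the 4 motifs searched.

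Serpina3f and Serpina3g promoters were identical at 79.0% of 214 aligned bases, and Serpina3g and Serpina3i at 80.5% of 236. Serpina3n was identical to Serpina3f at 65.8% of 313 aligned bases, to Serpina3g at 67.8% of 227 and to Serpina3i at 68.7% of 310. To Serpina3c it was identical at 92.6% of 297. Aligned bases include gaps but not the unmatched ends, so the shares cover stretches of unlike length. Serpina3i, whose promoter is close to that of Serpina3g, and Serpina3c, whose promoter is close to that of Serpina3n, had no probe well above background in either group. A motif match is a description of letters, and factor binding was not measured.

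The arrays also gave the setting in which these serpins changed. Each gene of the following lists was read by its brightest kept probe, each was tested with limma across all 35494 probes, and "rose" and "fell" mean an adjusted p under 0.05. The lists are read against the 47.5% of all probes that were called.

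Of the 18 other clade A serpins, 8 were measured, 1 rose and 0 fell, with a median log2 difference of -0.14, which turned to 0.08 under scaling by array medians, 0.11 with quantile normalization and 0.07 with normexp background correction. The gene that rose was Serpina1b, an alpha-1-antitrypsin gene, at 0.41 ± 0.12 with overlapping groups, and it is named after its values were seen. The count was 0 when the percentile was taken over detected probes alone (those well above background on each of the 8 arrays) and 0 without LPS replicate 4. Of 28 serpins of other clades, 18 were measured, 4 rose and 7 fell, with a median of -0.41. Serpinb9, the intracellular inhibitor of granzyme B, had a mean signal of 209.8 ± 24.5 in LPS samples and 138 ± 18.0 in saline samples and rose by 0.74 ± 0.12. Serpinc1, the gene of antithrombin, rose by 0.69 ± 0.16, or 0.19 with normexp background correction, and Serpinb8 rose by 0.47 ± 0.14. The call of Serpinb8 ended with quantile normalization, with the percentile over detected probes and without saline replicate 3. Serpinf2, the gene of the plasmin inhibitor alpha-2-antiplasmin, fell by 1.19 ± 0.16, and its difference was -0.51 with normexp background correction. Serpine2, the thrombin inhibitor protease nexin-1, fell by 1.10 ± 0.13, and Serpinb6b fell by 0.69 ± 0.14.

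Proteases that serpins and cathepsin inhibitors act on moved in both directions, with 9 of 22 measured genes higher, 3 lower and a median of 0.34. Gzmb, the granzyme that Serpina3n inhibits, had a mean signal of 41.9 ± 11.5 in LPS samples and 2.73 ± 2.09 in saline samples and rose by 4.37 ± 0.51, though only 1 of 4 saline arrays had it well above background. With dim signals raised to the lowest detected signal it was 3.26, and with normexp background correction 0.90. Gzma, another granzyme, rose by 2.27 ± 0.15, and Gzmc, undetected on all saline arrays, was at least 2.22-fold higher. Ctsg and Elane, the neutrophil cathepsin G and elastase, had differences of 0.54 ± 0.39 and -0.12 ± 0.15 and did not pass the test. Ctsb, a cathepsin that Serpina3g is known to inhibit, had a difference of -0.007 ± 0.095, which did not pass. These 3 genes are named for their link to the members, and Ctsb does not stand for all cathepsins. Of the remaining cathepsins measured, Ctsc, Ctsh, Ctss and Ctsz rose, with a difference of 0.599 for Ctsh, and Ctsd fell. Ctsk, at 1.16 ± 0.44, and Ctsl, at -0.058 ± 0.14, did not pass. Which of them Serpina3g acts on in these cells was not tested. Plau, the urokinase, fell by 0.54 ± 0.09 and the aspartic protease Ctsd fell by 0.47 ± 0.11, and neither passed when scaled to each array's median.

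Among acute phase proteins, the class to which human SERPINA3 belongs, 12 of 15 measured genes rose and 0 fell, with a median of 2.15. The serum amyloid genes stood first. Saa3 rose by 12.27 ± 0.23, Saa1 rose by 8.05 ± 0.14, and Saa2, undetected on all saline arrays, was at least 41.1-fold higher. With normexp background correction the differences of Saa3, Saa1 and Saa2 were 10.64, 7.21 and 1.97. LPS replicate 4 was the highest LPS array in 11 of these 12 genes, as it was for Serpina3f, Serpina3g and Serpina3n.

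Genes of pathways upstream of acute phase serpins, read as RNA in this fraction and including feedback genes, were mixed. In the IL-6 family and STAT3 list 8 of 19 measured genes rose and 3 fell, with a median of 0.18 (0.006 with quantile normalization). Socs3, the feedback inhibitor of STAT3, rose by 1.64 ± 0.12, the NF-kB cofactor Bcl3 by 1.52 ± 0.12 and the transcription factor Cebpb by 0.87 ± 0.11. Il6 itself fell by 0.77 ± 0.16, and Il6st, the shared receptor subunit gp130, fell by 0.71 ± 0.09. In the IL-1, TNF and NF-kB list 9 of 18 rose and 3 fell, with a median of 0.31. Il1b rose by 1.80 ± 0.16, Il1a by 1.01 ± 0.14 and the adaptor Myd88 by 0.87 ± 0.13. The receptor Il1r1 fell by 0.41 ± 0.10, Rel by 0.36 ± 0.08 and Nfkbiz by 0.34 ± 0.09. All 3 of these falls were no longer called under scaling by array medians, and Il1r1 was also not called with quantile normalization or with normexp background correction.

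In the interferon list, with inducers, receptors and targets, 14 of 21 measured genes rose and 0 fell, with a median of 0.81, although 3 fell with quantile normalization. Cxcl9, a chemokine induced by interferon gamma, rose by 4.96 ± 0.56, or 1.86 after normexp background correction, and 2 of 4 saline arrays had it well above background. Irf7, the master regulator of type I interferon genes, rose by 3.60 ± 0.18, and the GTPase Gbp2 rose by 3.34 ± 0.23. LPS replicate 4 was the highest LPS array in 10 of the 14 genes that rose, against 2 of 8 in the IL-6 family list and 3 of 9 in the IL-1, TNF and NF-kB list. These shares are descriptions of 1 array, with no test. In the list of glucocorticoid inputs, which also holds targets, 1 of 10 measured genes rose and 4 fell, with a median of -0.31. Hsd11b1, the enzyme that regenerates active glucocorticoid, rose by 1.24 ± 0.17, while Pdk4 fell by 0.99 ± 0.25, Sgk1 by 0.74 ± 0.13 and Errfi1 by 0.68 ± 0.09. With normexp background correction the difference of Pdk4 was -0.28.

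**Figure D3:**
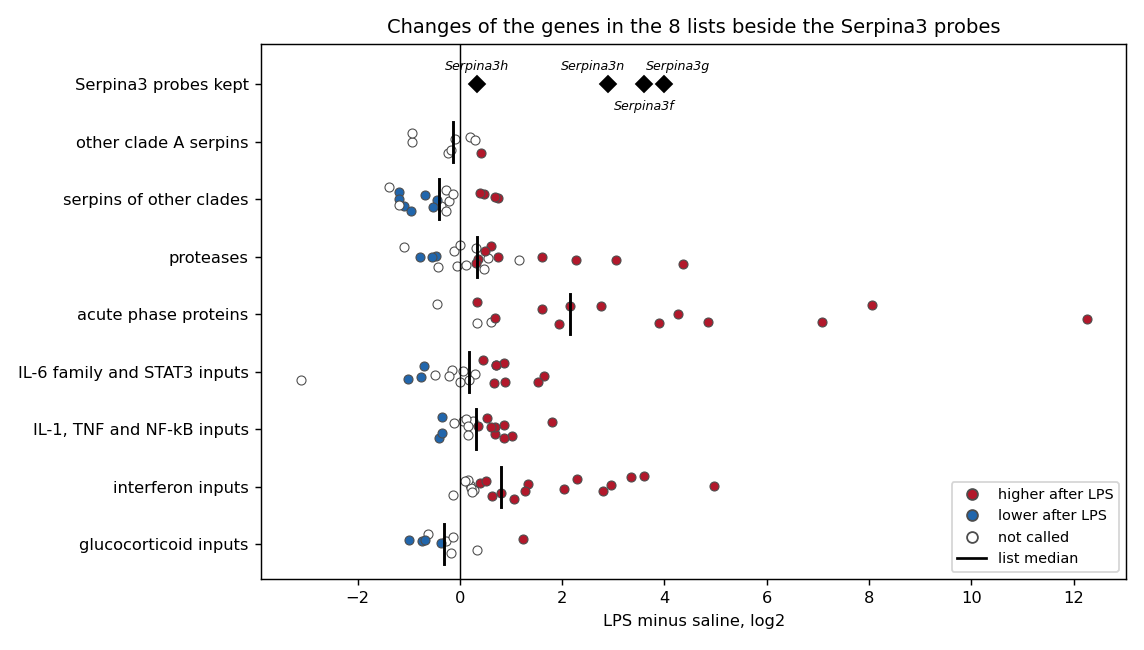
Log2 difference LPS minus saline of the 4 kept Serpina3 probes (black diamonds, top) and of each measured gene in 8 lists (circles, red where it rose, blue where it fell, open where it was not called), with the list median as a bar. Serpina3f, Serpina3g and Serpina3n lie among the larger increases of the acute phase and interferon lists (medians 2.15 and 0.81). Serpina3h at 0.33 lies among the genes that were not called. Serpina3f and Serpina3n are drawn at fitted values that take undetected saline signals as they stand, not at measured folds. With normexp background correction these 2 were 0.61 and 0.54, below the medians of the acute phase (1.97) and interferon (0.72) lists.

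The profiles most like those of Serpina3g and Serpina3n were sought among 26925 probes for Serpina3g and 26926 for Serpina3n that had a gene symbol and were well above background on all 8 arrays, by Pearson r over the 8 arrays. These arrays share the 2 treatment groups and 1 slide, so r carries the group difference and no p is given. For Serpina3g the closest were Gm5150 (r = 0.999), Gm9706 (0.999), Aoah (0.999), Klra2 (0.999) and Zbp1 (0.998), with log2 differences of 2.94, 3.13, 2.64, 2.68 and 3.99. Aoah is the enzyme that removes acyl chains from LPS, and Zbp1 is a sensor of nucleic acids. For Serpina3n the closest were Cd300lf (r = 0.991), Nos2 (0.987), Csprs (0.986), C1rb (0.983) and Angptl6 (0.981), with log2 differences of 1.83, 1.06, 1.45, 1.54 and 0.40. Cd300lf is an inhibitory receptor of myeloid cells, and Nos2 is the inducible nitric oxide synthase. No gene was on both lists, but lists this short out of 26925 and 26926 probes may share none whatever the regulation. The saline part of the Serpina3n profile also rests on undetected signals, taken as they stand. Nothing about shared or separate regulation is therefore read from the lists.

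The sorted fraction was checked by its markers. All 10 markers of microglia and myeloid cells were well above background on all 8 arrays, with a summed level of 1593 to 1903 on the LPS arrays and 1481 to 1807 on the saline arrays, and 3 rose and 3 fell. Most of that sum came from Csf1r and Cx3cr1, with mean LPS signals of 92466 and 84478, and neither was called. Of the hepatocyte markers, which bear on an acute phase gene family made in the liver, 4 of 8 were measured, 0 rose and 1 fell, and Apoa1, Ahsg, Cyp2e1 and Cyp3a11 were not kept. Their summed level was 1.84 to 1.99 on the LPS arrays and 2.06 to 2.31 on the saline arrays, and Alb fell by 0.71 ± 0.13. Most of that sum came from Apoa2, which was not called, with mean signals of 278 in LPS samples and 331 in saline samples. The hepatocyte sum therefore does not speak for the list. Of 9 neutrophil markers 2 rose and 0 fell, of 7 lymphocyte markers 4 rose and 1 fell, of 8 endothelial markers 1 rose and 5 fell, and of 9 oligodendrocyte markers 0 rose and 5 fell. Of 5 neuron markers 1 rose and 1 fell. Of 5 choroid plexus markers 0 rose and 0 fell, and their summed level varied widely between tubes. It was 56.1 to 285 on the LPS arrays and 116 to 311 on the saline arrays. The part of choroid plexus RNA in the members' signal was not tested. Some of these counts moved with the setting. Of lymphocyte markers, 2 rose without LPS replicate 4 and 2 rose with the percentile over detected probes. Under scaling by array medians 2 endothelial markers and 1 microglial marker fell, whereas 5 microglial markers fell with the percentile over detected probes, with quantile normalization and with normexp background correction. On the arrays as a whole, 58.6% to 63.2% of probes were well above background after LPS and 61.9% to 66.0% after saline. Tubes were separate pools of mice, and 4 arrays a group set the limit of precision throughout.

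The size of the members' differences depended on how dim signals were treated. With normexp background correction and its offset of 50, the log2 differences shrank to 2.19 for Serpina3g, and the fitted differences to 0.61 for Serpina3f and 0.54 for Serpina3n.

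**Figure D4:**
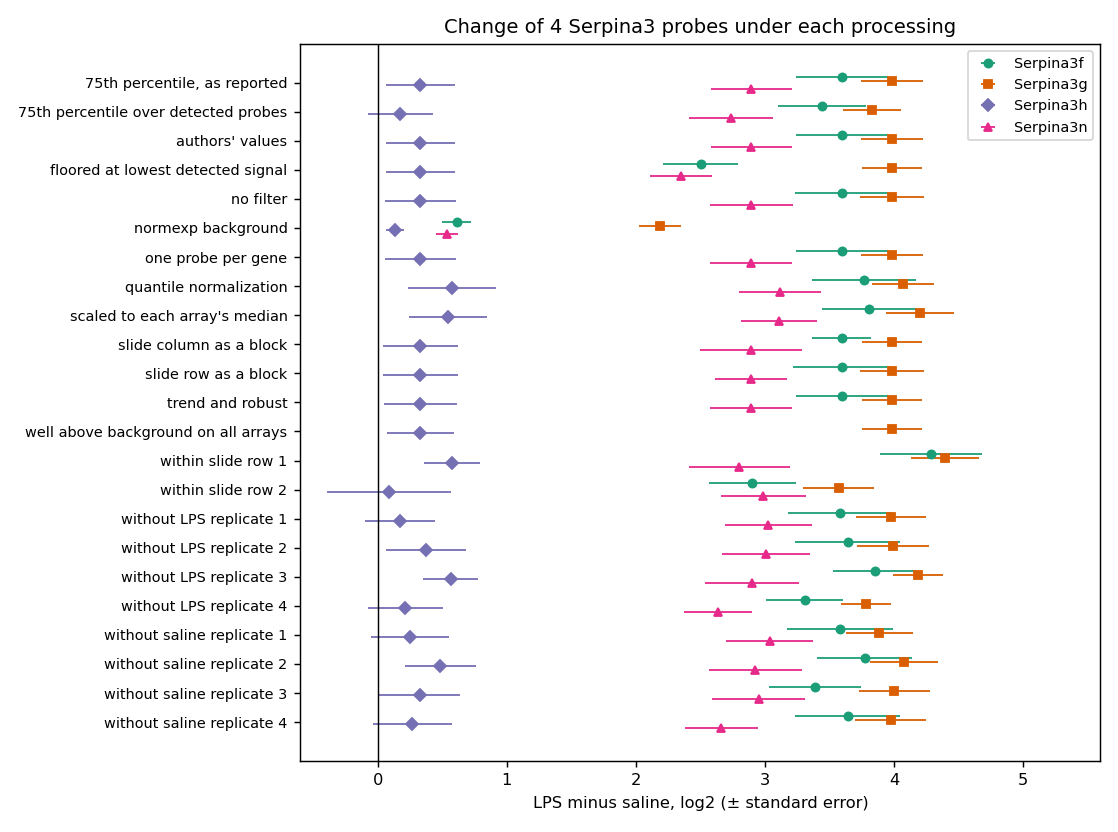
Log2 difference LPS minus saline with its standard error (bars) of the probes of Serpina3f, Serpina3g, Serpina3h and Serpina3n under each processing. Serpina3g lies between 3.57 and 4.40 in all settings except normexp background (2.19), Serpina3f and Serpina3n drop to 0.61 and 0.54 there, and Serpina3h stays within 0.09 to 0.58.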

How the data were processed

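Per the labels, Cy3-labelled cRNA was made from 50 ng total RNA of each tube. Spots were read with Agilent Feature Extraction 12.0.3.1, per the submitters' processing notes, and the deposited scanner files hold intensity values whose processed signal is background-subtracted, with surrogate values for undetected spots. The authors' deposited table holds log2 values that correlate with the scanner values at r = 1.00 on every array, have the same direction and column medians of -0.07 to 0.08, and served as an alternative. No source used here states how it was scaled and centred.

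Control and outlier spots were left out, spots of a probe were averaged, and log2 processed signal was set relative to the 75th percentile of its array. Each probe was fitted with limma 3.58.1 (lmFit, eBayes; R 4.3.3), and p-values were adjusted by Benjamini-Hochberg over the 35494 probes that were well above background on 4 or more of 8 arrays. The fit was tested on simulated data. Probe sequences and mm9 positions came from the scanner files and promoters from RefSeq, compared with Biopython 1.88. Named list genes were the 3 largest increases and 3 largest decreases called in a list whose groups do not overlap. Members, lists and alternatives were chosen with earlier results of these data known. The labels give no replicate numbers, so numbers follow order only and pair nothing. A further list member is not reported here.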

Additional observations from a re-analysis of the deposited data

Results flagged for a closer look

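Of 69 groups of 4 arrays examined for the members and the named list genes, 4 held an array whose gap to its nearest neighbour was over Dixon's critical share of the group's range, and chance gives about 1 group in 20. The second Serpina3f probe had 1 such array, LPS replicate 4, at a log2 level of -4.14 against -6.13 to -5.82 on the other LPS arrays and a gap of 0.843 of the range of log2 levels. LPS replicate 3 stood apart for Socs3, at a log2 level of 6.72 against 7.20 to 7.24 on the other LPS arrays (0.919 of the range). It also stood apart for Myd88, at 3.73 against 4.19 to 4.23 (0.931 of the range). Saline replicate 1 stood apart for Il1r1, at -1.81 against -2.05 to -2.02 on the other saline arrays (0.867 of the range).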

How the results depend on the processing

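The count of called probes was 16856, and 14446 to 20440 under the other scalings, background correction, filters, blocks and variance model and with the authors' values. It was 11104 with 1 probe per gene, which tests fewer probes, and 13182 to 19936 when each array was left out in turn. Of the calls, 54.1% were higher, against 72.3% under scaling by array medians and 37.3% with the percentile over detected probes (well above background on each of the 8 arrays), which shift the median of all probes by 0.21 and -0.16. The list genes gave 78 calls, and 71 to 88 with an array left out. Within slide rows 1 and 2 the fitted log2 difference was 4.29 and 2.90 for Serpina3f and 4.40 and 3.57 for Serpina3g, and the cause was not tested. With an array left out the fitted difference was 3.31 to 3.85 for Serpina3f, 3.78 to 4.19 for Serpina3g, 0.17 to 0.56 for Serpina3h and 2.64 to 3.04 for Serpina3n. Dim signals raised to the lowest detected signal gave 2.50 for Serpina3f and 2.35 for Serpina3n. Of 636 results of 32 named list genes under the alternatives, 626 kept direction and call, 10 in 6 genes kept direction only and 0 turned. The authors' values are among these alternatives and nearly repeat the fit used here. The labels carry no replicate numbers to pair tubes by, and slide column as a block, with 1 LPS and 1 saline array in each, gave 20440 calls. Serpina3f and Serpina3n, undetected after saline, have only bounds on the measured difference, so their fitted values take undetected signals as they stand. The bounds rest on the 75th percentile scaling and carry no error.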

Other observations

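Some list genes outside the rule carried values a reader may want to see, and they were picked after their values were known. Serping1, the inhibitor of complement C1, had a log2 difference of -0.28 ± 0.22 and did not pass the limma test (adjusted p = 0.324), and neither did Serpinb1a, an inhibitor of neutrophil elastase, at -0.21 ± 0.20 (adjusted p = 0.395). Plat, the tissue plasminogen activator, fell by 0.77 ± 0.23. Serpinh1, a collagen chaperone that inhibits no protease, fell by 0.96 ± 0.25. Ctsc, the dipeptidase that activates granzymes, cathepsin G and elastase, rose, with a mean signal of 12394 ± 1421 in LPS samples and 4489 ± 268 in saline samples (SD, n = 4 each). Il6ra had a difference of -3.12 ± 2.36 with an SD of 6337 around its LPS mean signal of 9328, and it did not pass the test.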
